A study of Mus musculus with 8 samples.

Results

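The 10 receptor chains described here, which macrophages use to read interleukins and colony-stimulating factors, were followed in bone marrow-derived macrophages (BMDM) given bilirubin or vehicle. The rule named the genes themselves (*Il2rg*, *Csf2rb*, *Csf2rb2*, *Csf2ra*, *Il3ra*, *Il4ra*, *Il13ra1*, *Il10ra*, *Il10rb* and *Il6ra*), and all 10 were found among the 53819 gene rows. The list was chosen by the bilirubin against vehicle fold changes of these same libraries, some of which were known when it was drawn up, so the fold changes of its members are a description without a p-value. Marrow came from 4 female BALB/cJ mice aged 8 weeks and was grown for 5 days with 25 ng/mL M-CSF, the macrophage growth factor, in every culture. A vehicle (DMSO) culture and a culture with 2.5 µM bilirubin were then kept for 48 hours from each mouse, giving 8 poly-A RNA libraries, 4 in each group, numbered here as mouse 1 to mouse 4. The cells were unsorted macrophages made in a dish from 1 strain and 1 sex, and the sources name no cytokine other than M-CSF for either group. RNA was measured, not surface protein.

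Cytokine receptors of this kind are built from chains that several receptors share. The common gamma chain (*Il2rg*) is part of the receptors for IL-2, IL-4, IL-7, IL-9, IL-15 and IL-21 and brings JAK3 to them. The common beta chain (*Csf2rb*) carries the signal of GM-CSF, IL-3 and IL-5 through JAK2, and mice have a second beta chain (*Csf2rb2*) that works only with the IL-3 receptor. Each needs an alpha chain that gives specificity, such as *Csf2ra* for GM-CSF, *Il3ra* for IL-3 and *Il4ra* for IL-4. IL-4 can also signal through *Il4ra* with *Il13ra1*, the pair that binds IL-13. IL-10 acts through *Il10ra* and *Il10rb*, and IL-6 through *Il6ra* and the shared chain gp130 (*Il6st*).

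*Csf2rb* and *Csf2rb2* lie 20030 bases apart on mouse chromosome 15 on opposite strands, *Csf2rb* at chr15:78209952-78238047 (plus strand) and *Csf2rb2* at chr15:78166707-78189921 (minus strand), in GRCm39. Their coding sequences, 2691 and 2637 bases long, were 95.21% identical over 2631 aligned bases, with 126 mismatches and 66 gapped positions. Reads can be told apart only where the genes differ. Of the 31-base windows of the *Csf2rb* coding sequence, 39.57% also occurred in *Csf2rb2*, as did 11.03% of its 100-base windows and 6.49% of its 150-base windows. Over the whole transcripts, of 4764 and 4740 bases, these shares were lower, at 28.92%, 7.16% and 3.58%. The longest stretch without a difference was 242 bases. The read length is not given in the sources used here, and the reference is another mouse strain than BALB/cJ. The most different stretch of 150 bases within 1 exon, in exon 4 of 14, is shown because reads from it can separate the chains, with the 18 mismatched bases in capitals. It lies at chr15:78223002-78223151 (plus strand) in *Csf2rb* and at chr15:78178580-78178729 (minus strand) in *Csf2rb2*.
Csf2rb: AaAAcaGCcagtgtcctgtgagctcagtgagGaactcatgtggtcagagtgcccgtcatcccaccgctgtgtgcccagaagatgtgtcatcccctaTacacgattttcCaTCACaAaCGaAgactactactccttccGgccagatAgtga
Csf2rb2: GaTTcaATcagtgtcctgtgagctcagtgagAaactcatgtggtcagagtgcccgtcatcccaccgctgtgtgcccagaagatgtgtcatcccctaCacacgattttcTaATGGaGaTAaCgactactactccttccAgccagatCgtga

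Of 838 such coding windows, counted only where they lay within 1 exon and held no gap, 165 (19.69%) held no mismatch. The median window held 3. The following stretch of exon 14 is 1 of those, the same in *Csf2rb* (chr15:78232777-78232926, plus strand) and *Csf2rb2* (chr15:78168922-78169071, minus strand), so reads from it fit both genes equally well.
Csf2rb and Csf2rb2: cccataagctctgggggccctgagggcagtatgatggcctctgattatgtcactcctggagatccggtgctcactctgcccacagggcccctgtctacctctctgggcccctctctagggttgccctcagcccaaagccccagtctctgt

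**Figure D1:**
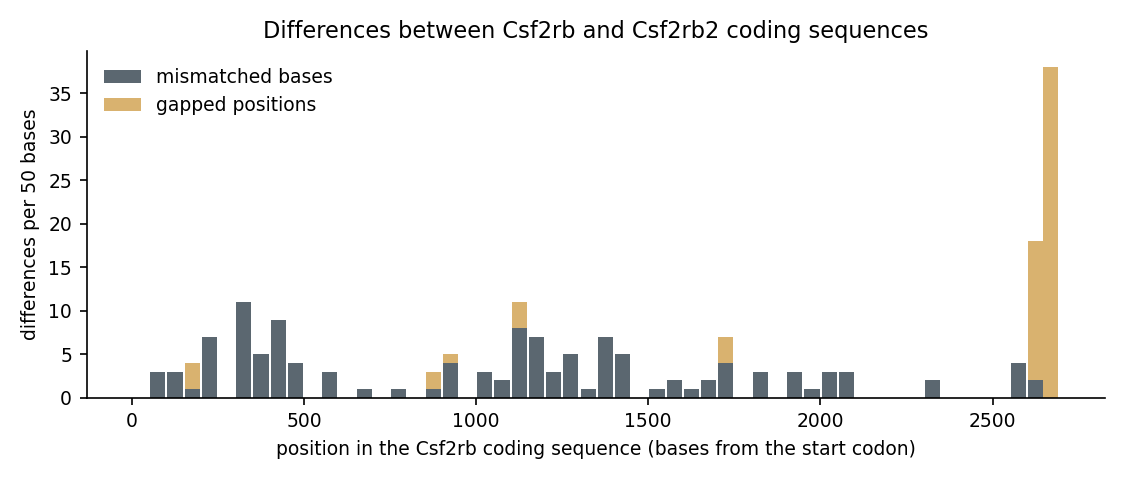
Mismatched bases (grey) and gapped positions (yellow) between the *Csf2rb* and *Csf2rb2* coding sequences, as bars for each block of 50 bases along *Csf2rb* (x axis, bases from the start codon; y axis, differences in the block). Of 54 blocks, 18 held no difference; the most mismatched block, bases 301 to 350, held 11, and the last blocks hold the gaps where *Csf2rb2* is shorter.

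Levels were compared between genes in TPM, the deposited measure of transcript abundance that corrects for length as well as depth. Summed over its transcripts, the GM-CSF receptor alpha chain *Csf2ra* was the most abundant of the 10 in vehicle cultures. It stood at 320.2 ± 12.97 TPM (SD, n = 4 mice), above 97.0% of the tested genes. *Il10rb*, the shared second chain of the IL-10 receptor, followed at 204 ± 3.39 TPM, and the common beta chain *Csf2rb* at 111 ± 6.10 TPM. The protein-coding ENSMUST00000076046 held 54.4% ± 1.68 of the *Csf2ra* TPM, and a 654-base transcript with no annotated coding region 25.2% ± 2.38. For *Il10rb*, the protein-coding ENSMUST00000023691 held 96.2% ± 0.59. The order therefore ranks all transcripts of a gene and does not rank coding transcripts alone. By these mean shares, the main coding transcript of *Il10rb* stood above that of *Csf2ra*. The common gamma chain *Il2rg* stood at 49.0 ± 4.63 TPM and *Csf2rb2* at 43.5 ± 6.15 TPM. The alpha chains *Il4ra*, *Il3ra* and *Il6ra* stood at 32.4 ± 4.54, 25.1 ± 1.59 and 22.9 ± 1.34 TPM. *Il10ra*, which binds IL-10, was at 17.8 ± 1.21 TPM, and *Il13ra1*, the IL-13-binding chain, came last at 4.72 ± 0.560 TPM, above 29.1% of the tested genes.

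The vehicle ranges of most neighbors in this order did not overlap. The ranges of *Il2rg* and *Csf2rb2* and those of *Il3ra* and *Il6ra* overlapped, with the order held in 3 of 4 mice, so these neighbors did not differ beyond their spread. The ranges of *Csf2rb2* and *Il4ra* overlapped too, but *Csf2rb2* was the higher of the pair in all 4 mice. With bilirubin the order was the same except that *Il3ra* (21.0 ± 2.96 TPM) ranked behind *Il6ra* (21.8 ± 3.27 TPM), again within the spread. *Il2rg* kept rank 4 but stood at 126 ± 19.8 TPM, against 166 ± 21.8 TPM for *Csf2rb* above it. The lowest estimated count of any member in any library was 362, for *Il13ra1*, so none was near the detection limit.

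**Figure D2:**
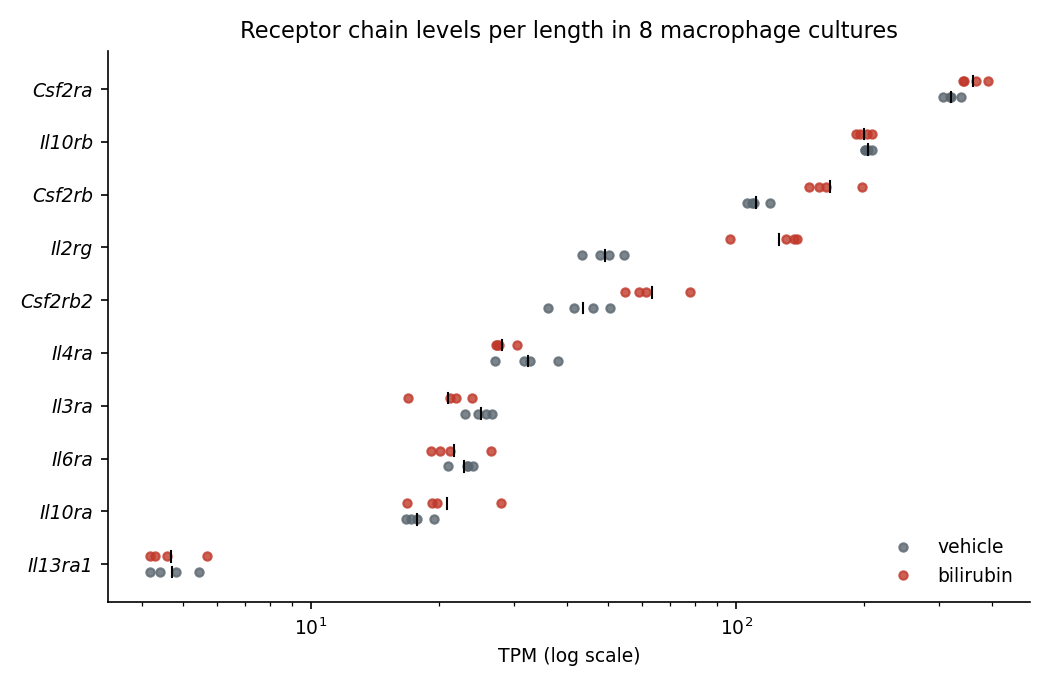
TPM (log axis) of the 10 receptor chains, ordered by their vehicle mean; each point is a culture, grey for vehicle and red for bilirubin, and the black bar is the mean of 4 cultures. *Csf2ra* and *Il10rb* lie highest and *Il13ra1* lowest in both groups, and the bilirubin points of *Il2rg* and *Csf2rb* stand clear of their vehicle points.

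The comparison asks how 48 hours of bilirubin moved these chains within each mouse. Estimated counts were expressed as CPM (counts scaled to library size, here with edgeR's TMM factors) and fitted with mouse and treatment in the model, and a gene was called when its adjusted p was under 0.05 over all genes. Of the 10 chains 4 were called, all of them higher with bilirubin (*Il2rg*, *Csf2rb*, *Csf2rb2* and *Csf2ra*), and 0 were called lower. Among all genes, 4.49% of the 13722 tested genes were called higher, 3.04% lower and 7.53% in either direction. Those calls were 616 higher and 417 lower, or 527 higher and 556 lower under scaling by library size without TMM factors, where the same 4 chains were called. The median log2 fold change of the 10 was 0.12, beside -0.0018 over all tested genes. Since this contrast chose the list, nothing is read from these counts about the members. In bulk RNA, a change in the number of cells of a kind and a change in RNA per cell cannot be told apart.

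*Il2rg* (ENSMUSG00000031304, chrX:100307984-100311861, minus strand, GRCm39, as for the genes that follow) showed the largest log2 fold change of the 10. Its level was 41.0, 40.3, 46.2 and 47.7 CPM for mice 1 to 4 under vehicle, and 123, 92.9, 121 and 125 CPM under bilirubin. Every bilirubin culture was above every vehicle culture, and the bilirubin culture of mouse 2 was the lowest of its group. The log2 fold change was 1.39 ± 0.059 (SE), a 2.63-fold higher level, and ran from 1.20 in mouse 2 to 1.59 in mouse 1. The protein-coding transcript ENSMUST00000033664 made up 88.9% ± 6.89 of the gene's TPM with vehicle and 89.0% ± 3.81 with bilirubin, so the transcript mix of *Il2rg* differed by less than its spread.

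*Csf2rb* (ENSMUSG00000071713), the signaling chain for GM-CSF, IL-3 and IL-5, stood at 220.1, 243, 212 and 186 CPM with vehicle in mice 1 to 4. With bilirubin the values were 304, 375, 344 and 315 CPM, so the groups did not overlap. Its log2 fold change was 0.64 ± 0.049, or 1.55-fold, and every mouse moved upward, by 0.46 in mouse 1 up to 0.76 in mouse 4. *Csf2rb2* (ENSMUSG00000071714), the chain for IL-3 alone, stood at 118, 129, 116 and 97.9 CPM with vehicle, and at 138, 196, 170 and 160 CPM with bilirubin. Here too the groups did not overlap, though mouse 1 with bilirubin was only just above mouse 2 with vehicle. The log2 fold change was 0.52 ± 0.070, from 0.23 in mouse 1 to 0.71 in mouse 4.

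Because reads of the stretch of exon 14 shown above can be given to either beta chain, the counts of both were also summed. The sum was 338, 372, 329 and 284 CPM with vehicle and 441, 571, 513 and 474 CPM with bilirubin, without overlap, and its log2 fold change was 0.60 ± 0.054. This value does not depend on how Salmon split the shared reads. *Csf2rb* held 65.2% ± 0.395 of the summed counts with vehicle and 66.9% ± 1.31 with bilirubin. The share was higher with bilirubin in all 4 mice when taken over counts, and in 2 of 4 when taken over TPM (72.0% ± 1.97 and 72.5% ± 1.19), so which beta chain moved more cannot be read from these files.

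*Csf2ra* (ENSMUSG00000059326, chr19:61212395-61216892, minus strand), which gives the common beta chain its specificity for GM-CSF, changed by less. Vehicle cultures held 246, 246, 264 and 233 CPM and bilirubin cultures 281, 285, 288 and 278 CPM. The lowest bilirubin culture was above the highest vehicle culture, and the log2 fold change was 0.20 ± 0.034, or 14.5% higher. The call was lost when mouse 2 was left out (log2 fold change 0.19) and when mouse 4 was left out (0.18). With both beta chains summed, their TPM relative to that of *Csf2ra* went from 0.484 ± 0.0360 with vehicle to 0.641 ± 0.114 with bilirubin. The ratio was higher in all 4 mice, although the groups overlapped. It takes in all transcripts of these genes. The protein-coding ENSMUST00000076046 held 54.4% of the *Csf2ra* TPM with vehicle and 53.2% with bilirubin. The 4764-base ENSMUST00000096355 held 62.7% of the *Csf2rb* TPM with vehicle and 63.4% with bilirubin. A short transcript of 397 bases, ENSMUST00000229034, held 26.6% ± 18.15 of the *Csf2rb* TPM with vehicle, with 0 in mouse 1, and 32.7% ± 4.89 with bilirubin.

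*Il3ra* (ENSMUSG00000068758, chr14:8113752-8123508, minus strand), the alpha chain that partners both beta chains for IL-3, was not called. It stood at 15.9, 16.0, 18.9 and 16.3 CPM with vehicle and at 18.3, 14.0, 18.0 and 17.7 CPM with bilirubin, with overlapping groups. The log2 fold change was 0.02 ± 0.076, higher in 2 mice and lower in 2. The shares of its transcripts were less alike. ENSMUST00000090591, of 12 exons and 1 of 2 transcripts with the full 1188 coding bases, held 17.2%, 29.2%, 33.1% and 33.9% of the gene's TPM with vehicle and 46.2%, 43.2%, 48.8% and 42.1% with bilirubin. A transcript of 506 bases with no annotated coding region, ENSMUST00000225560, held 30.2%, 24.9%, 20.3% and 33.1% with vehicle and 13.4%, 13.5%, 12.6% and 19.4% with bilirubin. Neither pair of groups overlapped. These transcripts were singled out after their values were seen, and their shares are Salmon's estimates. When the fit took the average transcript length into account, the log2 fold change of *Il3ra* was -0.22 in place of 0.02, still without a call.

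The chains of the IL-4 and IL-13 receptors were not called. *Il4ra* (ENSMUSG00000030748, chr7:125151079-125182844, plus strand), the IL-4-binding chain, stood at 64.3, 67.2, 57.2 and 64.7 CPM with vehicle and at 61.7, 57.2, 57.4 and 58.4 CPM with bilirubin. The groups overlapped, and the log2 fold change was -0.11 ± 0.047, with lower values in 3 of 4 mice. *Il13ra1* (ENSMUSG00000017057, chrX:35375461-35435331, plus strand) stood at 12.3, 11.1, 9.56 and 10.1 CPM with vehicle against 12.7, 10.0, 10.8 and 10.5 CPM under bilirubin. Its log2 fold change was 0.03 ± 0.076. With *Il2rg* higher and *Il4ra* not, the TPM of *Il2rg* relative to that of *Il4ra* was 1.54 ± 0.314 with vehicle and 4.46 ± 0.632 with bilirubin, without overlap. This ratio takes in all transcripts of both genes. The full coding transcript of *Il4ra* held only 10.3% of its TPM with vehicle and 11.4% with bilirubin.

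Most *Il4ra* signal was assigned to a transcript that does not encode the whole receptor. ENSMUST00000206846, annotated as a target of nonsense-mediated decay, held 70.4% ± 6.86 of the gene's TPM with vehicle and 71.1% ± 1.45 with bilirubin, and the full coding transcript ENSMUST00000033004 held 10.3% ± 1.42 and 11.4% ± 0.459. The first has an added exon of 114 bases, exon 8 of 12 (chr7:125171106-125171219, plus strand, GRCm39), known as the exon of the soluble form of the mouse IL-4 receptor. It ends the reading frame after 230 codons in place of 810. The first 20 bases of that exon, with the stop codon in capitals, are shown because they are where the reading frame ends.
Il4ra added exon: caagtaatgaaaatctgTGA
The full transcript also runs 1548 bases further at its 3′ end and 167 bases further at its 5′ end. Which of these differences assigned the reads is not known.

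*Il10ra* (ENSMUSG00000032089, chr9:45165132-45180563, minus strand), the ligand-binding chain for IL-10, stood at 41.0, 35.8, 38.1 and 36.6 CPM with vehicle and at 57.5, 37.5, 43.4 and 43.4 CPM with bilirubin. All 4 mice were higher with bilirubin, but the bilirubin culture of mouse 2 lay inside the vehicle range, and the gene was not called. The log2 fold change was 0.25 ± 0.066, from 0.07 in mouse 2 to 0.49 in mouse 1. It was called without mouse 1 (log2 fold change 0.17), by DESeq2 (0.25) and with no filter on low counts (0.25). *Il10rb* (ENSMUSG00000022969, chr16:91203012-91224600, plus strand) ranged from 214 to 219.9 CPM with vehicle and from 210.0 to 228 CPM under bilirubin. Its log2 fold change was 0.01 ± 0.034. Its exons share 1712 bases with *Gm21970*, an overlapping gene on the same strand that held 0 to 11 counts per library. *Il6ra* (ENSMUSG00000027947, chr3:89771366-89820719, minus strand), the IL-6-binding chain, ranged from 62.1 to 68.3 CPM with vehicle and from 57.6 to 75.0 CPM under bilirubin. Its log2 fold change was -0.05 ± 0.058.

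**Figure D3:**
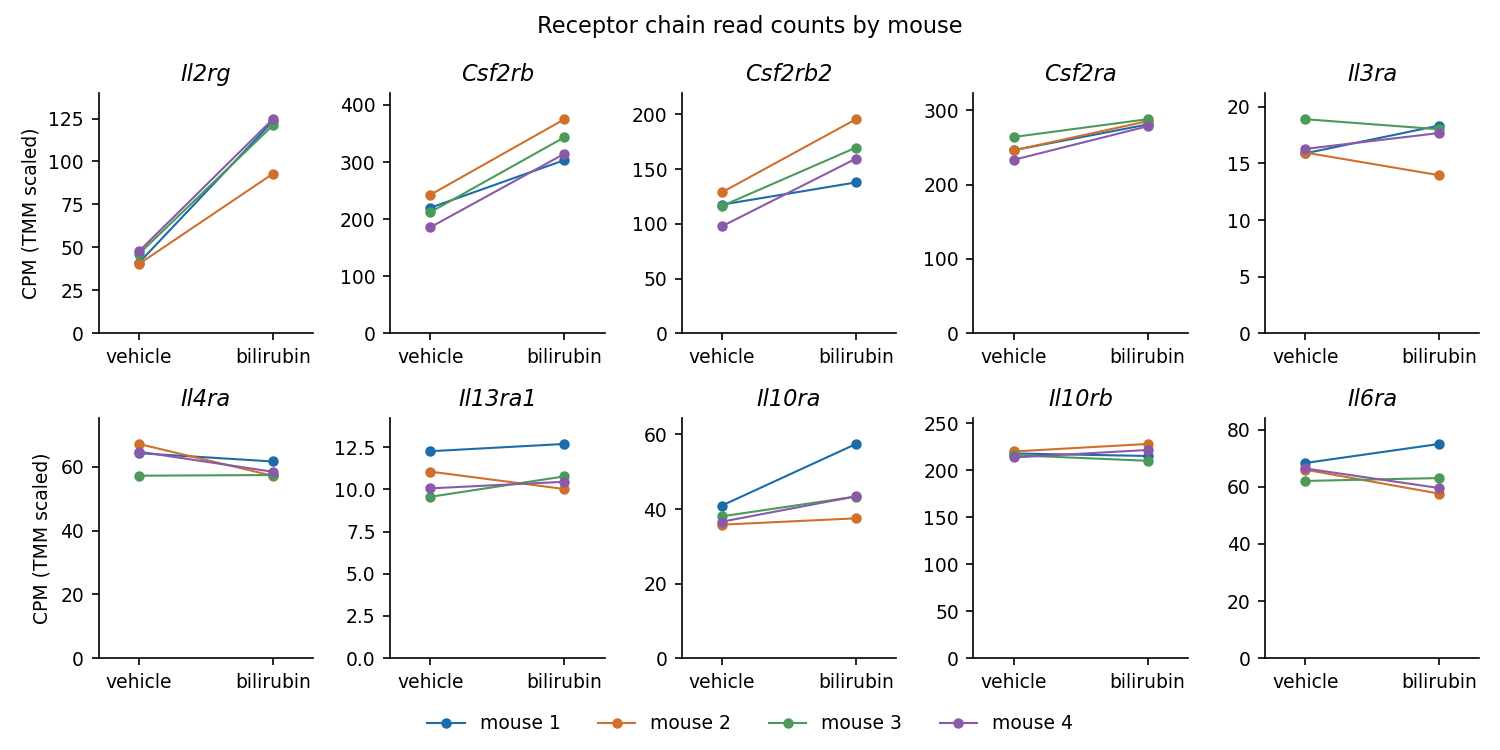
CPM (TMM scaled, y axes from 0) of each receptor chain in the vehicle and bilirubin culture of each mouse; lines join the cultures of 1 mouse. For *Il2rg*, *Csf2rb*, *Csf2rb2* and *Csf2ra* all 4 bilirubin cultures lie above all 4 vehicle cultures, and for the other 6 chains the groups overlap.

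The groups did not overlap for 4 of the 10 chains, the same 4 that were called, beside 10.6% of all tested genes. Mice differed in how far they moved. Mouse 1 had the largest change of *Il2rg* and of *Il10ra* and the smallest of both beta chains. Mouse 2 had the smallest change of *Il2rg* and of *Il10ra*, and its change was the lowest of the 4 mice for *Il3ra*, *Il4ra*, *Il13ra1* and *Il6ra* as well.

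**Figure D4:**
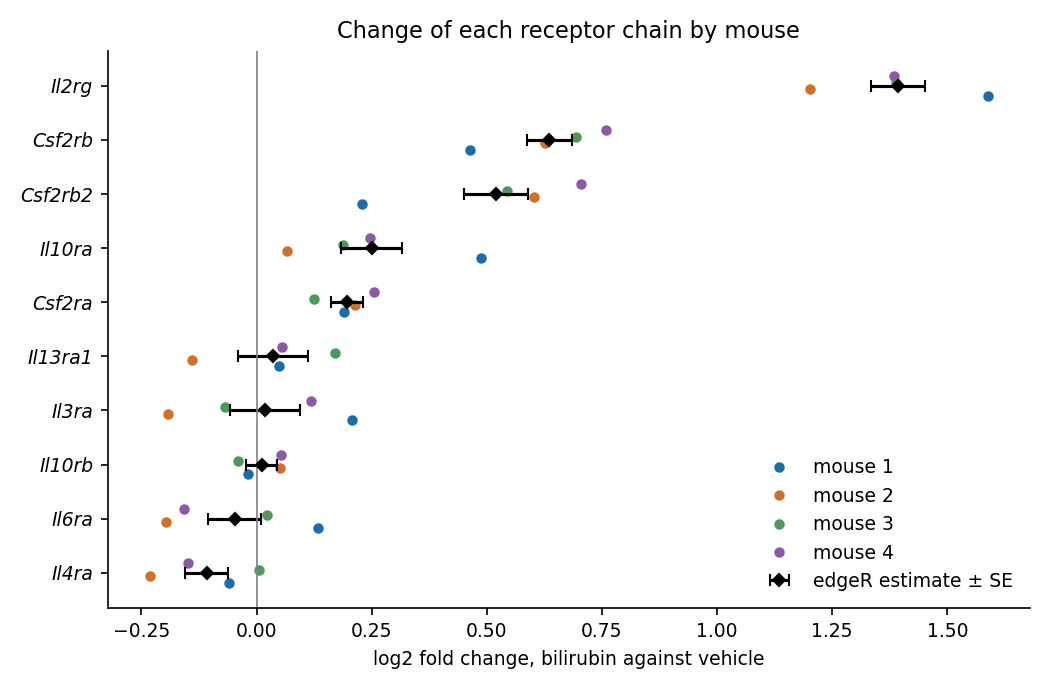
Log2 fold change of each receptor chain, bilirubin against vehicle, for each mouse (colored points) and as the edgeR estimate ± SE (black diamonds, n = 4 mice). *Il2rg*, *Csf2rb*, *Csf2rb2*, *Il10ra* and *Csf2ra* lie above 0 in all 4 mice, and the points of the other chains fall on both sides of 0.

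By a fixed measure of likeness, the root mean square difference of log2 CPM centered on each gene over the 8 libraries, 10896 genes were set against *Il2rg* and against the summed beta chains. Both groups enter this measure, so a similar rise with bilirubin in the genes it names follows from their selection. The 5 most like *Il2rg* were *Ralgds* (0.10), *Tlr2* (0.11), *Pde4b* (0.13), *Spic* (0.13) and *Gm10134* (0.13). *Tlr2*, the receptor for bacterial lipopeptides, averaged 52.6 CPM in vehicle cultures and 126 CPM in bilirubin cultures, and *Pde4b*, a cyclic AMP phosphodiesterase, averaged 5.36 and 13.01 CPM. The 5 most like the beta chains were *Itga1* (0.07), *H2-K1* (0.10), *Pla2g7* (0.10), *H2-K2* (0.10) and *Gpr141* (0.10). *H2-K1*, an MHC class I heavy chain, stood at 511 and 693 CPM, and *Pla2g7*, which breaks down platelet-activating factor, at 368 and 623 CPM. *H2-K1* and *H2-K2* are close relatives, and their reads may be split between them.

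Promoter sequence, the 250 bases before the start site, was given by RefSeq (GRCm38.p6, an older build than the GRCm39 of the counts) for 7 of the 10 genes and not for *Csf2rb*, *Il10ra* and *Il10rb*. Both strands were searched for TTCNNNGAA, the gamma-activated site bound by STAT proteins, for GAGGAA, a core of the site of the myeloid factor PU.1, and for the NF-kB motif. The STAT motif occurred in 1 of the 7 (*Csf2rb2*), beside 7.18% of 27025 promoters. The PU.1 core occurred in 3 (*Csf2ra*, *Csf2rb2* and *Il6ra*), beside 23.13%, and the NF-kB motif in 0, beside 7.01%. The promoters of the 3 called genes in the table are shown so that the motifs can be seen in place, with matches in capitals: *Il2rg* (chrX:101268256-101268505, minus strand, GRCm38.p6), *Csf2rb2* (chr15:78305722-78305971, minus strand) and *Csf2ra* (chr19:61228419-61228668, minus strand). In *Csf2rb2* TTCCTC is the PU.1 core read from the other strand.
Il2rg: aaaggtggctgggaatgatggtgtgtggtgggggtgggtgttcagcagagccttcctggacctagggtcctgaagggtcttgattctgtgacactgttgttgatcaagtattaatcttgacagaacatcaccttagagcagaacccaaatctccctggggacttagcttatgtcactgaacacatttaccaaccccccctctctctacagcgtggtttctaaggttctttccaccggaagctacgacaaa
Csf2rb2: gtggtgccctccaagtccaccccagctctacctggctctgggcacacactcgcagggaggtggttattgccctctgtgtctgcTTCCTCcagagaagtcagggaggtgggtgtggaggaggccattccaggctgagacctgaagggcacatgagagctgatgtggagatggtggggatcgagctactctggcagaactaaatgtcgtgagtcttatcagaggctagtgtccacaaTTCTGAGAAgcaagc
Csf2ra: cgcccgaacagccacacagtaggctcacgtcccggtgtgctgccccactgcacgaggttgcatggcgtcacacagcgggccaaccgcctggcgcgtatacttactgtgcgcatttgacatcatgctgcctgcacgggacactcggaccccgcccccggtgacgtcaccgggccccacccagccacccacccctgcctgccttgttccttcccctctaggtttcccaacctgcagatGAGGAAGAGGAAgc
A match is only a match of letters, and binding was not measured.

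The chains that partner these receptors were taken from lists of 121 further genes of the same pathways, of which 75 had enough counts to be tested. By edgeR's quasi-likelihood test, 12 of the 75 passed as higher and 5 as lower, 22.7% beside the 7.53% of all tested genes, and the median log2 fold change of the 75 was -0.02. The lists were also written with earlier results of these data known. Leaving out mouse 3 or mouse 4 left 9 calls.

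Among partners of the gamma and beta chains, 4 of 9 were tested. By edgeR 0 passed, as with DESeq2 and limma voom, and 1 had an unadjusted p under 0.05. *Il7r*, which pairs with the gamma chain for IL-7, was well expressed, at 218, 249.1, 254 and 217 CPM with vehicle and 172, 302, 235 and 256 CPM with bilirubin, with overlapping groups (log2 fold change 0.02 ± 0.095, adjusted p = 0.957 by edgeR). *Il15ra*, which presents IL-15, stood at 2.20 ± 0.349 and 2.48 ± 0.404 CPM (adjusted p = 0.678 by edgeR). *Il21r*, the IL-21-binding chain, averaged 3.89 ± 0.306 CPM in vehicle cultures and 2.89 ± 0.571 CPM in bilirubin cultures and did not pass, with a log2 fold change of -0.44 ± 0.161 (adjusted p = 0.164 by edgeR). *Il2ra* and *Il2rb*, which complete the IL-2 receptor, had at most 2 counts in any library. *Il9r* also had at most 2, and *Il5ra* had 0. *Il13ra2*, a decoy receptor for IL-13, had up to 8 counts with vehicle and 3 to 36 with bilirubin and was not tested.

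The gp130 chain *Il6st*, which carries the signal of IL-6 after *Il6ra* binds it, was the 1 of 5 tested IL-6 and IL-12 family receptors that passed, and it fell. It stood at 132, 139, 143 and 128 CPM with vehicle and at 103.8, 133, 108 and 108 CPM with bilirubin, lower in all 4 mice, with mouse 2 of the bilirubin group inside the vehicle range. The log2 fold change was -0.27 ± 0.055 (adjusted p = 0.0234 by edgeR). It did not pass without mouse 3 (adjusted p = 0.164) or without mouse 4 (0.115), nor without the mouse as a block (0.0719) or with transcript lengths as an offset (0.0586).

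Of the 5 tested class II receptors, the family of the IL-10 receptor, *Ifngr2* and *Ifnar1* passed as higher. *Ifngr2*, a chain of the interferon gamma receptor, rose from 93.6 ± 0.647 to 116 ± 2.80 CPM (log2 fold change 0.31 ± 0.034, adjusted p = 0.00114 by edgeR), without overlap. *Ifnar1*, a chain of the type I interferon receptor, rose from 177 ± 3.51 to 200.1 ± 9.81 CPM (0.18 ± 0.042, adjusted p = 0.0392 by edgeR). The call of *Ifnar1* was lost without mouse 2 (adjusted p = 0.0568), without mouse 3 (0.241) and without mouse 4 (0.224), and also with scaling by library size alone (0.0647) and with the transcript length offset (0.0708). Among other growth factor receptors 0 of 3 tested passed by edgeR, DESeq2 or limma voom, 0 had an unadjusted p under 0.05, and *Csf1r*, the receptor for the M-CSF in the medium, stood at 1494 ± 68.4 and 1490.0 ± 238 CPM.

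The ligands were mostly near the detection limit. Of 24, 5 were tested, and *Ebi3*, a subunit shared by IL-27 and IL-35, passed as higher, from 26.8 ± 1.28 to 38.3 ± 3.07 CPM (log2 fold change 0.52 ± 0.051, adjusted p = 0.000711 by edgeR). *Il13* had 0 counts in every library, *Il4* at most 2, *Csf2* and *Il3* at most 3 and *Il6* at most 7, and *Il7* had 2 to 12. *Il10* stood at 0.799, 0.583, 1.12 and 1.55 CPM with vehicle and at 1.01, 1.44, 1.80 and 2.29 CPM with bilirubin, higher in all 4 mice without passing (adjusted p = 0.125 by edgeR). *Il15* was at 4.51 ± 0.660 and 4.27 ± 0.833 CPM (adjusted p = 0.760 by edgeR).

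Of the kinases and transcription factors below the receptors, 0 of 11 passed by edgeR, DESeq2 or limma voom, and 3 had an unadjusted p under 0.05, *Jak1* and *Jak2* among them. *Jak1* stood at 235 ± 1.76 and 248 ± 6.63 CPM (adjusted p = 0.214), *Jak2* at 40.6 ± 1.76 and 43.5 ± 1.51 CPM (0.218), *Jak3* at 24.3 ± 1.19 and 24.0 ± 3.78 CPM (0.912) and *Tyk2* at 64.7 ± 1.31 and 63.97 ± 5.22 CPM (0.895).

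Feedback regulators gave 2 higher and 1 lower call among 16 tested. *Socs3*, an inhibitor that STAT3 induces, stood at 3.37, 3.13, 3.60 and 3.10 CPM with vehicle and 5.84, 7.81, 10.6 and 10.1 CPM with bilirubin, without overlap, and rose by 1.35 ± 0.154 on the log2 scale (adjusted p = 0.00147 by edgeR). *Ptpn6*, the phosphatase SHP-1, rose from 251 ± 10.1 to 290 ± 22.2 CPM (0.21 ± 0.040, adjusted p = 0.0173 by edgeR). *Sh2b3*, an adaptor that restrains JAK2, fell from 142 ± 2.35 to 125 ± 5.70 CPM (-0.19 ± 0.036, adjusted p = 0.0168 by edgeR). *Ptpn6* did not pass without mouse 3 (adjusted p = 0.142) or without mouse 4 (0.0932), nor without the mouse as a block (0.0658) or with the transcript length offset (0.0698), and *Sh2b3* did not pass without mouse 2 (0.0948), mouse 3 (0.100) or mouse 4 (0.119).

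Target genes were read by list. Of 10 tested genes that IL-4 and IL-13 induce through STAT6, 0 passed by edgeR, DESeq2 or limma voom. Among the 10, 3 had an unadjusted p under 0.05 by edgeR, in different directions. The log2 fold change was -0.40 ± 0.171 for *Mrc1* (lower in 3 of 4 mice), -0.10 ± 0.033 for *Tgm2* and 0.33 ± 0.115 for *Matk*. *Arg1*, an IL-4-induced arginase, was at 0.476 ± 0.137 and 0.381 ± 0.360 CPM. Of 12 tested genes that IL-10 and IL-6 induce through STAT3, 7 passed, all higher, and 10 had an unadjusted p under 0.05 by edgeR. The directions were not all the same. Of the 5 that did not pass, *Sbno2* and *Etv3* were lower in all 4 mice, without overlap. Their log2 fold changes were -0.13 ± 0.0335 and -0.15 ± 0.0395 (adjusted p = 0.0548 and 0.0678 by edgeR). *Saa3*, an acute-phase protein, rose from 3.19 ± 0.322 to 131 ± 49.2 CPM (log2 fold change 5.32 ± 0.161, adjusted p = 6.48e-06 by edgeR), and *Il1rn*, the IL-1 receptor antagonist, from 34.3 ± 4.34 to 49.4 ± 8.49 CPM (0.52 ± 0.048, adjusted p = 0.000514 by edgeR). *Socs3* is the other of the 3 with the smallest adjusted p. Several of these genes also answer other signals, *Saa3* among them.

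Of 10 tested genes that GM-CSF and IL-3 induce through STAT5, 3 passed as higher and 3 as lower. *Mcl1*, a survival protein, rose from 512 ± 21.8 to 681 ± 30.5 CPM (log2 fold change 0.41 ± 0.037, adjusted p = 0.000429 by edgeR). *Il1rn* is in this list too, as is *Pim1*, a kinase that rose from 48.6 ± 2.77 to 55.3 ± 2.36 CPM (0.19 ± 0.046, adjusted p = 0.0435 by edgeR). *Bcl2l1*, which encodes the survival protein Bcl-xL, fell from 133 ± 2.06 to 98.6 ± 4.30 CPM (-0.43 ± 0.038, adjusted p = 0.000427 by edgeR). *Ccnd2*, a cyclin, fell from 2.78 ± 0.554 to 0.871 ± 0.349 CPM (-1.72 ± 0.232, adjusted p = 0.00299 by edgeR). *Id2*, a regulator of differentiation, fell from 253 ± 2.68 to 217 ± 20.3 CPM (-0.23 ± 0.052, adjusted p = 0.0358 by edgeR). *Pim1* and *Id2* did not pass without mouse 2 (adjusted p = 0.143 and 0.0783), without mouse 3 (0.0862 and 0.136) or without mouse 4 (0.231 and 0.158), nor without the mouse as a block (0.0688 and 0.0652) or with the transcript length offset (0.111 and 0.0781). *Pim1* also missed the threshold with DESeq2 (adjusted p = 0.0542) and with library size alone (0.0729), and so passed in 5 of 12 alternatives. *Ccnd2* did not pass with the transcript length offset (adjusted p = 0.0564).

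**Figure D5:**
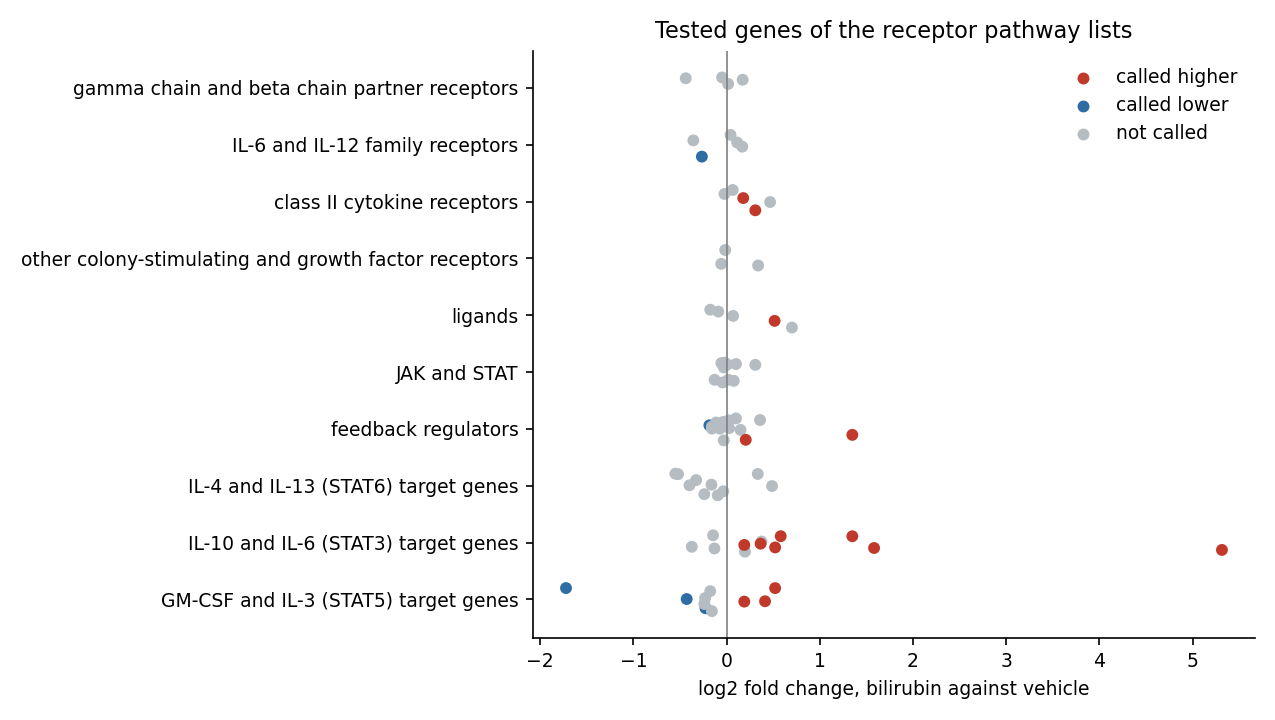
Log2 fold change, bilirubin against vehicle, of each tested gene in 10 lists around the receptors; red points were called higher, blue points lower and grey points not called, and points are spread vertically only to separate them. The receptor, JAK and STAT lists lie between -0.44 and 0.47, the STAT3 targets hold 7 red points with *Saa3* far to the right at 5.32, and the STAT5 targets hold 3 red and 3 blue points.

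Other cell types that carry these receptors were checked by their markers. *Cd3d*, *Cd3e* and *Cd3g*, which define T cells, had at most 3 counts in every library, as did *Cd79a*, *Ms4a1* and *Pax5* of B cells and *Ncr1*, *Gzma*, *Prf1* and *Eomes* of NK cells. The 6 T cell markers summed to 18.0 to 22.4 CPM with vehicle and 9.48 to 17.7 CPM with bilirubin, nearly all from *Cd2* and *Cd28*, and *Cd28* fell (log2 fold change -1.05, adjusted p = 0.00269 by edgeR). Summed markers reached at most 0.547 CPM in any library for B cells, 0.166 for NK cells, 2.19 for neutrophils, 0.647 for dendritic cells, 0.0995 for mast cells and basophils, 0.277 for erythroid cells and 3.51 for stroma. All 9 macrophage markers were expressed, and their sum was 24500 to 24900 CPM with vehicle and 28900 to 31000.0 CPM with bilirubin. Of the 9, *Adgre1*, *Lyz2*, *Itgam* and *Cd14* were called higher and 1 was called lower. Their part in the receptor values was not tested.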

How the data were processed

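RNA from 8 macrophage cultures was sequenced as paired-end poly-A libraries. The authors trimmed reads with Trim Galore 0.6.7 and Cutadapt 3.4, aligned them with STAR 2.7.9a to GRCm39, quantified transcripts with Salmon 1.10.1 and summed them per gene with tximport. The deposited gene table holds Salmon's estimated counts (expected counts), unscaled. The deposited transcript files hold TPM, which the authors' tool scaled for length and depth, and estimated counts.

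Counts were rounded. Vehicle libraries held 37747315 to 47071714 counts and bilirubin libraries 34142781 to 41054034, and counting error is small at the members' levels. Testing used edgeR 4.0.16 in R 4.3.3 with TMM, filterByExpr (at least 10 counts, 15 in total), mouse and treatment in the model, and Benjamini-Hochberg adjustment over 13722 genes at 0.05. Log2 CPM used a prior count of 2. The procedure was tested on simulated data. Cultures were paired by the mouse given in the labels. Their deviations from group means correlated at -0.005 to 0.134 within mice and at -0.160 to 0.075 between mice. Alternatives used DESeq2 1.42.0, limma 3.58.1, other scalings and filters, transcript lengths, no mouse block, and each mouse left out.

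Gene positions and the beta chain alignment came from GRCm39 with a later annotation than the authors' (GENCODE vM39). Named genes were the 10 members, every list gene that passed where 6 or fewer did and otherwise the 3 with the smallest adjusted p in each direction, stated partner chains, ligands and JAK kinases, and the 5 most like *Il2rg* or the beta chains. *Cd28*, *Sbno2*, *Etv3* and the macrophage markers were named after their values were seen. The members and lists were chosen with earlier results of these data known. Protein sequences and raw reads were not analysed here. Some genes of the lists are counted but not reported by name here.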

Additional observations from a re-analysis of the deposited data

Results flagged for a closer look

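Each group of 4 values was checked for a culture far from the other 3, over 49 groups, of which chance alone would give about 1 in 20, and 4 were marked. *Il2rg* in the bilirubin cultures was 6.54 log2 CPM in mouse 2, below 6.92 to 6.96 in the other mice. *Il3ra* in the vehicle cultures was 4.24 log2 CPM in mouse 3, above 3.99 to 4.03 in the others. *Il3ra* in the bilirubin cultures was 3.81 log2 CPM in mouse 2, below 4.15 to 4.20 in the others. The summed TPM of the beta chains relative to *Csf2ra* in the vehicle cultures was 0.537 in mouse 2, above 0.462 to 0.471 in the others.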

How the results depend on the processing

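Over 12 alternatives, the log2 fold changes of *Il2rg*, *Csf2rb*, *Csf2rb2* and the sum of the beta chains ran from 1.33 to 1.45, 0.60 to 0.69, 0.46 to 0.61 and 0.55 to 0.66. The members were chosen by this contrast on the same libraries, so these ranges and the counts of chains that passed describe the settings and are no independent support. Between 3 and 5 of the 10 chains passed, and 3 to 5 with a mouse left out. Of 120 log2 fold changes of members, 119 stayed within 1 SD over mice of the reported value, *Il3ra* with transcript lengths being the exception, and 0 called values changed sign. Without the mouse as a block, the same 4 chains passed, and 13 pathway genes in place of 17. Pathway genes passing numbered 11 with transcript lengths and 9 to 25 with a mouse left out, and 7 of the 14 named ones passed in all 12 alternatives. Over all genes, 1033 passed, against 686 without the block, 579 with transcript lengths, 1692 with no filter, and 1910, 634, 377 and 441 without mouse 1, 2, 3 and 4. Ranks in TPM moved for 5 of the 10 chains when CPM was used, and the *Csf2rb* share was 72.2% in TPM and 66.05% in counts. With 4 mice, the smaller changes depend on single animals.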
